A study of Mus musculus with 4 samples.

Results

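The Myc, Max and Mxd network is a set of transcription factors with a basic helix-loop-helix leucine zipper, and its messenger RNAs were followed in 4 mouse tumours profiled by polyA RNA sequencing. The genes were chosen by name: Myc, Mycn, Mycl, Max, Mxi1, Mxd1, Mxd3, Mxd4, Mnt and Mlx, 10 of the 46946 genes in the deposited count table, and all 10 were found. Per the labels, each tumour is an untreated PDGFB K27M tumour that grew from neural stem cells carrying PDGF and K27M, a mutation that replaces lysine 27 of histone H3. The series' own text speaks instead of injected cells of DIPG, a childhood glioma of the brainstem, with mutant H3.3, and the count table does not settle this. Strain, age, the promoters that drive PDGF and the mutant histone, and whether the cells were 1 clone are not stated. The tumours are called T14, T10, T8 and TUN after the columns of the table, form 1 group, and have no normal brain or other genotype beside them, so the values show levels and the spread between tumours.

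Myc proteins bind DNA as a heterodimer with Max, mostly at the E-box CACGTG, and raise the transcription of genes for ribosome production, metabolism and cell division. Proteins of the Mxd family (Mxd1, Mxi1, which is also known as Mxd2, Mxd3 and Mxd4) and Mnt compete for Max and bring the Sin3 and histone deacetylase corepressors to the same sites. Mlx is a second, Max-like partner that serves Mxd1, Mxd4, Mnt and the glucose-sensing Mondo proteins. In the nervous system, Mycn is known for driving the growth of precursor cells, Myc and Mycn are amplified in a share of childhood brain tumours, and Mxd3 is known in mice as the Mxd gene of dividing cells.

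Sequences around the start sites of the network's own genes show where such E-boxes lie. RefSeq promoter windows (GRCm38.p6, 250 bases before to 50 after a start site) matched 9 of the 10 genes (all but Myc), with 11 windows in all, and the E-box is the same on both strands. It was found in 4 of the 11 windows, those of Max, Mxd4, Mnt and Mlx, and in 7.15% of all 32851 windows. The stretches below are shown because they place Max-binding letters at or before the start sites of the common partners and of 2 repressors that pair with Max. They are given 5′ to 3′ along each gene, with the E-box in capitals.
Max, chr12:76962234-76962263, minus strand: ggtgagcccggtCACGTGttagggggccga
Mlx, chr11:101087238-101087267, plus strand: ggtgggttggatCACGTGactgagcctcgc
Mnt, chr11:74830789-74830818, plus strand: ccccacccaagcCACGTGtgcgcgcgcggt
Mxd4, chr5:34187912-34187941, minus strand: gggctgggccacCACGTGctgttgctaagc
The E-box of Max lies across its start site, from base -3 to base 2, and those of Mlx, Mnt and Mxd4 begin at bases -40, -123 and -219. Windows were also searched for letters bound by E2F, the factors that switch on genes at the start of S phase, as TTTGGCGC, TTTCGCGC and TTTCCCGC on both strands. They were found in 1 of the 11 windows searched, that of Mycn, and in 1.84% of all windows. The Mycn stretch holds 3 matches, the first of which overlaps the second, all in capitals.
Mycn, chr12:12941994-12942022, minus strand: gctTTTGGCGCGAAAggcTTTGGCGCctc
A match describes these letters only and is not evidence of binding in the tumours.

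The libraries held 21664889 to 24369339 counts. Values are in CPM, which divides counts by TMM-normalised library size, and in RPKM, which is also divided by the merged exon length of the table, so that levels of different genes can be compared. Every network gene stood above 1 CPM in all 4 tumours, with between 245 counts (Mxd1 in T8) and 4976 counts (Mxd4 in T14). Levels of cell type markers differed between the tumours. The summed level of 8 neuron markers was 185 CPM in TUN, 309 in T8, 2474 in T10 and 3400 in T14, and that of 7 astrocyte markers was 2000, 2141, 4263 and 6677 CPM in the same order. The 11 markers of dividing cells summed to 2349, 1911, 1035 and 973 CPM, and the 6 markers of oligodendrocyte precursors (Pdgfra, Olig1, Olig2, Sox10, Cspg4 and Lhfpl3) to 9063, 11674, 7880 and 6843 CPM. All of these markers were detected in all 4 tumours, while the T cell gene Cd3e had no count in any. Some lists differed more: 4 cerebellar granule neuron markers summed to 7.81 CPM in TUN, 23 in T8, 257 in T10 and 1658 in T14. The 4 choroid plexus markers summed to 604 CPM in T10 and at most 39.3 elsewhere, and the 4 erythroid markers to 78.3 in T14 and at most 10.8 elsewhere. Others differed little, with 524 to 681 CPM for microglia and 203 to 239 for endothelial markers. In bulk RNA, fewer cells of a type and less RNA per cell cannot be told apart.

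**Figure D1:**
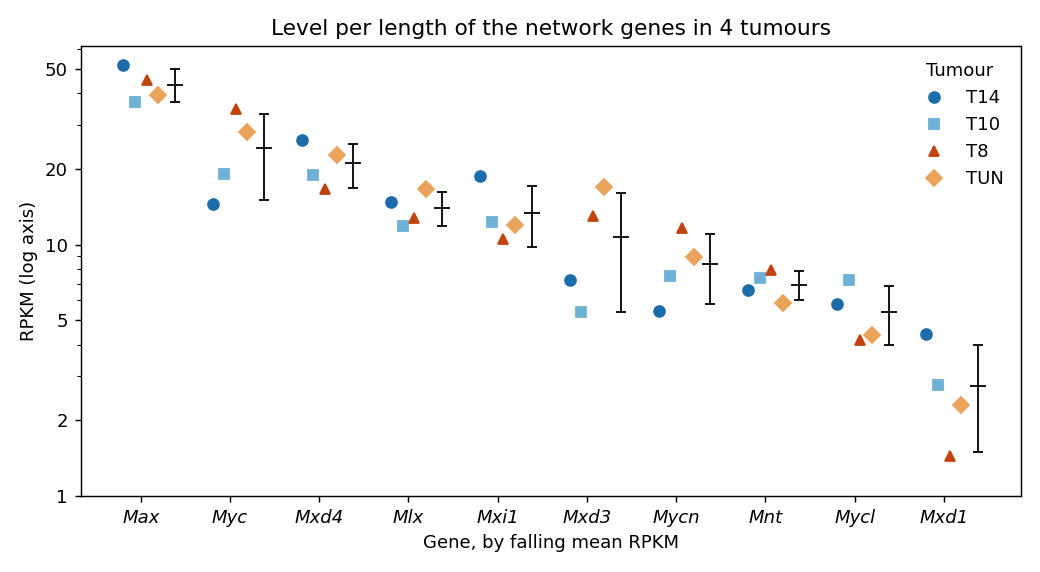
Level of each network gene in RPKM (log axis) in the 4 tumours (coloured points), with the mean and SD of the 4 (black). Max lies above all other genes and Mxd1 at the low end, and Myc, Mxd3 and Mxd1 spread most between tumours.

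Max, the shared partner, was the most abundant network gene per length, at 43.2 ± 6.47 RPKM (SD, n = 4), above 91.2% of the genes tested. Myc followed at 24.1 ± 9.04 RPKM, Mxd4 at 21.0 ± 4.16, Mlx at 14 ± 2.2 and Mxi1 at 13.4 ± 3.63 RPKM. Max stood apart, since its lowest tumour lay above the highest tumour of Myc. The lower part of the order held Mxd3 at 10.7 ± 5.31 RPKM, Mycn at 8.38 ± 2.6, Mnt at 6.94 ± 0.912, Mycl at 5.4 ± 1.42 and Mxd1 at 2.74 ± 1.24 RPKM. Below Max, each neighbouring pair in this order had overlapping ranges. In the pairs Mxd4 over Mlx, Mnt over Mycl and Mycl over Mxd1 the first gene was nevertheless higher within each of the 4 tumours, whereas Mlx and Mxi1, like Mxi1 and Mxd3, changed places in 2 of 4.

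Spread between tumours was tested against the trend for genes of like abundance with the goodness of fit of an intercept-only edgeR model over 14266 genes. It called 0 of the 10 network genes, against 4.34% of all genes tested, and none had an unadjusted p under 0.05. The smallest unadjusted p of the 10 was that of Mxd3 (0.143), and DESeq2 marked none of them as a dispersion outlier. A p that misses the threshold does not show that a gene was stable, and 4 of the 10 spanned over 2-fold. The ratio of highest to lowest tumour had a median of 1.75 over the 10 genes and of 1.57 over all genes tested, which are close. The widest were Mxd3 (3.14-fold), Mxd1 (3.04-fold), Myc (2.39-fold) and Mycn (2.13-fold), and the narrowest were Mnt (1.36-fold), Max (1.39-fold) and Mlx (1.42-fold). Of all genes tested, 12.3% spanned more than Mxd3, 20.7% more than Myc, 25.7% more than Mycn and 70.4% more than Mnt.

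Among the activators, Myc (ENSMUSG00000022346, chromosome 15, 61985341 to 61990374 in mm10, plus strand) stood at 77.9 CPM in TUN, 96.1 in T8, 53.0 in T10 and 40.3 in T14. T8 and TUN were therefore above T14 and T10, though the goodness of fit in edgeR did not call the spread between tumours (unadjusted p = 0.224). The exact Poisson 95% interval, which covers counting error only, was 50.1 to 55.9 CPM in T10 and 74.3 to 81.6 in TUN. Mycn (chromosome 12, 12936096 to 12941914, minus strand) had the same order of tumours, at 29.3 CPM in TUN, 38.3 in T8, 24.6 in T10 and 18.0 in T14. Mycl, the family member known for its amplification in small cell lung cancer, ran differently, at 17.6 CPM in TUN, 16.9 in T8, 29.2 in T10 and 23.5 in T14. Its highest tumours, T10 and T14, were those lowest in Myc and Mycn. The summed level of the 7 mature oligodendrocyte markers was also highest in T10 and then T14. It was 1028 CPM in TUN, 1056 in T8, 5012 in T10 and 3728 in T14. Of these markers, 6 were highest in T10, while Cldn11 was highest in TUN (155 CPM) and lowest in T14 (93.8 CPM). The neuron markers were high in T10 and T14 as well. The part of either marker list in the level of Mycl was not tested. The order shown by Myc, T14 then T10, TUN and T8 from low to high, was shared by 8.74% of all genes tested.

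Corrected for length, Myc supplied most of the RNA of the 3 genes in every tumour. In CPM, Myc did not exceed Mycn and Mycl together in T14 (40.3, 18.0 and 23.5) or in T10 (53.0, 24.6 and 29.2). The share of Myc in the summed RPKM of Myc, Mycn and Mycl was 67.9% in TUN, 68.7% in T8, 56.6% in T10 and 56.3% in T14. The share of Mycn hardly moved, between 21.2% and 23.0%, and that of Mycl was 22.5% in T14 and 21.4% in T10, against 8.29% in T8 and 10.5% in TUN. As a log2 ratio, Mycn stood below Myc by a near constant amount (-1.49 ± 0.14, SD, n = 4), while Mycl to Myc varied widely (-2.1 ± 0.87). Both ratios were below 0 in 4 of 4 tumours, but with 4 tumours the exact sign-flip test cannot go below p = 0.125, so no ratio could be called (adjusted p = 0.146 over 7 ratios for each). The further Myc-like gene Bmyc, known to lack the DNA-binding end of Myc, had 8.43 to 10.4 CPM, which over its 983 bases of exon is 8.57 to 10.6 RPKM. With Bmyc counted, the share of Myc would be 56.2% in TUN, 56.8% in T8, 45.1% in T10 and 40.0% in T14. Mycs, an intronless relative on chromosome X, had no count in any tumour, which allows up to 0.134 CPM.

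Pvt1, the long non-coding RNA gene that starts 47612 bases beyond the end of Myc, stood at 48.5 CPM in TUN, 59.7 in T8, 26.6 in T10 and 22.7 in T14. This is the order of Myc itself, and the gene did not pass the goodness of fit in edgeR either (adjusted p = 1).

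**Figure D2:**
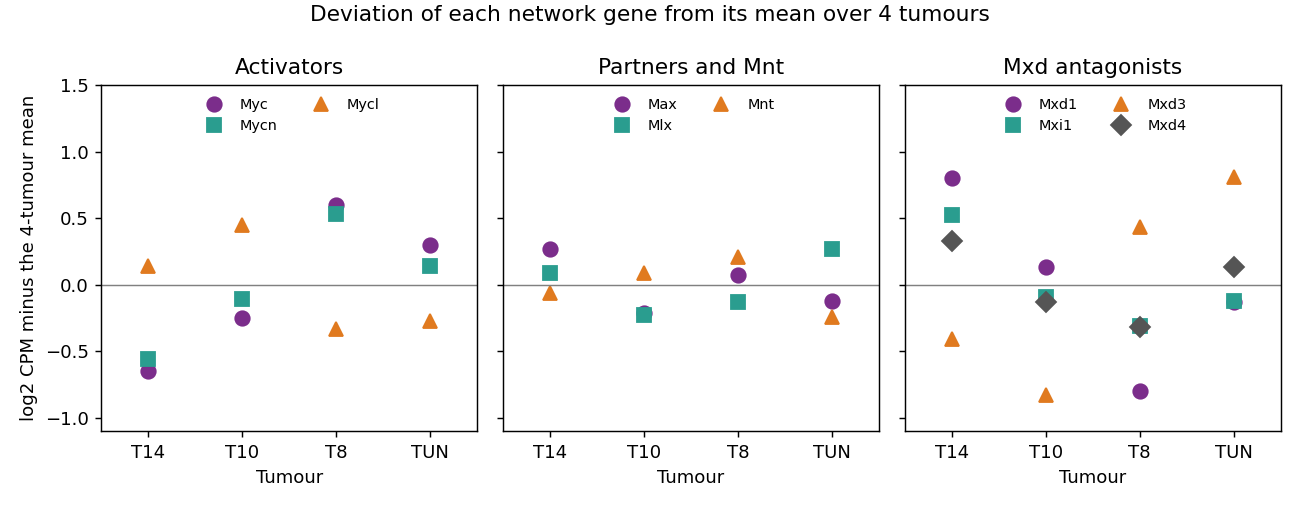
Log2 CPM of each network gene minus its mean over the 4 tumours. Myc and Mycn lie below their mean in T14 and above it in T8, Mxd1 and Mxi1 do the reverse, and Mxd3 is lowest in T10 and highest in TUN.

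The partner genes varied little. Max (chromosome 12, 76937269 to 76962248) stood at 78.9 CPM in TUN, 90.0 in T8, 74.1 in T10 and 103 in T14. Mlx (chromosome 11, 101087277 to 101092207) stood at 33.3 CPM in TUN, 25.3 in T8, 23.5 in T10 and 29.6 in T14. Neither separated the tumours rich in Myc from the others, since T14 and T8 were the highest for Max and TUN and T14 for Mlx. Max exceeded Mlx by 1.62 ± 0.27 log2 units, above 0 in 4 of 4 tumours (exact sign-flip p = 0.125). Exons of Mlx share 385 of its 1999 bases with Psmc3ip on the other strand, and the library kit does not mark strand, so its level is less certain than that of Max.

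Mnt, the broadly expressed antagonist of Myc (chromosome 11, 74830920 to 74845725), stood at 27.1 CPM in TUN, 36.8 in T8, 34.0 in T10 and 30.6 in T14. It was the least variable network gene, with a coefficient of variation of 13.1%, and its highest and lowest tumours, T8 and TUN, were both high in Myc. Its log2 ratio to Max was -2.62 ± 0.27 in RPKM, below 0 in 4 of 4 tumours (exact sign-flip p = 0.125).

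The Mxd genes did not move as a block. Mxd1 (chromosome 6, 86647042 to 86669161), a gene known to be switched on as cells leave the cycle and differentiate, stood at 16.3 CPM in TUN, 10.3 in T8, 19.6 in T10 and 31.2 in T14. Mxi1 (chromosome 19, 53310506 to 53375810) had its highest value in T14 and its lowest in T8 as well, at 67.6 CPM in TUN, 59.0 in T8, 68.9 in T10 and 105 in T14. Both were lowest where Myc was highest and highest where it was lowest. The same is true of Mxd4 (chromosome 5, 34173883 to 34187720), the most abundant of the family, at 192 CPM in TUN, 141 in T8, 160 in T10 and 221 in T14, although TUN came second there. The sums of neuron and of astrocyte markers were highest in T14 too, and the part of these markers in these values was not tested.

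Mxd3 (chromosome 13, 55325168 to 55329758) differed from its relatives in that T8 stood above both T14 and T10, at 35.3 CPM in TUN, 27.1 in T8, 11.2 in T10 and 15.1 in T14. Its 2 high tumours were those with the high sums of dividing-cell markers, and all 11 of these markers were highest in TUN, as Mxd3 was. Set against their sum, Mxd3 spanned 1.43-fold (10.9 to 15.5 CPM per 1000 CPM of dividing-cell markers) in place of 3.14-fold, and against precursor markers 2.73-fold. The summed level of the 6 macrophage and monocyte markers had the same order of tumours as Mxd3. It was 1000 CPM in TUN, 355 in T8, 125 in T10 and 213 in T14, and Lyz2 made up most of it. Of the 6, 5 were detected in all 4 tumours, and 5 were highest in TUN and 1, Ccr2, in T8. Mrc1 and F13a1 were lowest in T8 (2.64 and 1.38 CPM), unlike Mxd3. The part of dividing-cell or macrophage markers in the level of Mxd3 was not tested. Per length, Mxd4 exceeded Mxd3 by 1.83 log2 units in T14 and 1.79 in T10, against 0.35 in T8 and 0.41 in TUN (mean 1.09 ± 0.83, above 0 in 4 of 4, exact sign-flip p = 0.125; 3.12 in CPM). Mxi1 exceeded Mxd1 by 2.32 ± 0.33 log2 units in 4 of 4 tumours (exact sign-flip p = 0.125). Exons of Mxd3 share 104 of 2081 bases with Prelid1 on the other strand, a gene with 1477 to 2680 counts that was also higher in T8 and TUN.

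Counted over the network, 3 of 10 genes (Myc, Mycn and Mxd3) had both T8 and TUN above both T14 and T10, against 32.5% of all genes tested. Another 3 (Mycl, Mxi1 and Mxd1) had the reverse, against 33.0%, or 2 of 10 with library totals in place of TMM, where Mxi1 in T10 and TUN changed places. T14 was the highest tumour for 4 genes, against 29.3% of all genes, T8 for 3 (24.9%), TUN for 2 (25.2%) and T10 for 1 (20.7%). These shares lie near those of all genes.

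**Figure D3:**
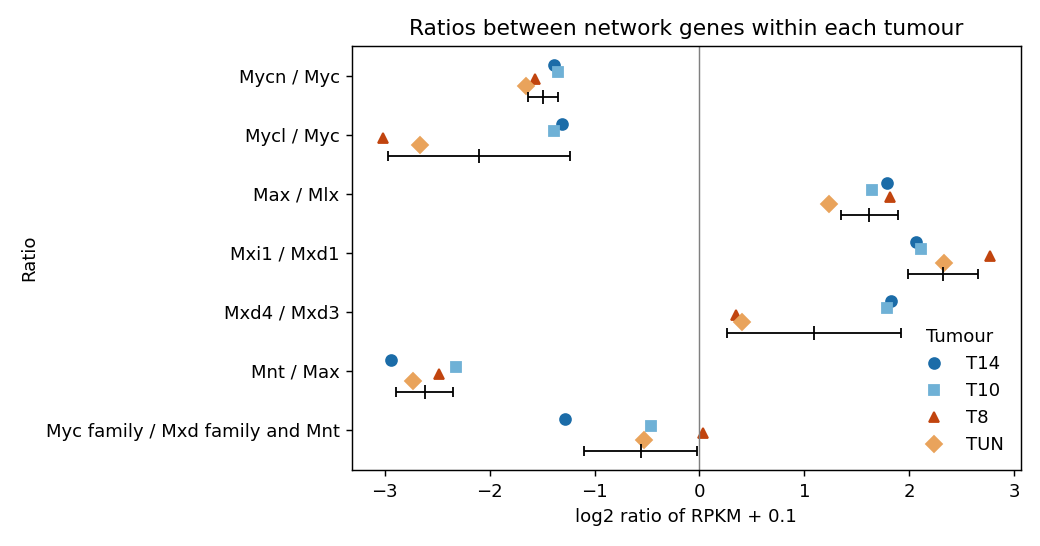
Log2 ratios of RPKM (+ 0.1) between network genes in the 4 tumours (coloured points), with mean and SD below each row of points (black). Mycl to Myc and Mxd4 to Mxd3 split T14 and T10 from T8 and TUN, and the ratio of the Myc family to the antagonists reaches 0 in T8.

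The balance of activators and antagonists differed most between T14 and T8. The RPKM of Myc, Mycn and Mycl summed to 41.4 in TUN, 50.6 in T8, 33.8 in T10 and 25.8 in T14. That of Mxd1, Mxi1, Mxd3, Mxd4 and Mnt summed to 59.8, 49.5, 46.7 and 63.0 RPKM in the same order. Antagonist RNA therefore exceeded activator RNA in T14, T10 and TUN, and the sums were nearly equal in T8. That near equality rests on the correction for length, since in CPM the log2 ratio of the sums in T8 was -0.85. The log2 ratio of the sums was -0.53 in TUN, 0.03 in T8, -0.46 in T10 and -1.28 in T14 (mean -0.56 ± 0.54, exact sign-flip p = 0.25, adjusted p = 0.25). The mean was -0.32 without T14 and -1.51 in CPM. Within the antagonists, the share of Mxd3 was 11.5% in T14 and 11.6% in T10, against 26.3% in T8 and 28.4% in TUN. Summed RNA says nothing of protein, which for Myc is known to be controlled strongly by degradation.

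The wider network was described with 5 lists of other genes, 93 genes in all, of which 92 were found under their symbols and tested. The goodness of fit in edgeR called 1 of the 92, against 4.34% of all genes tested, and 5 of the 92 had an unadjusted p under 0.05, against 8.38% of all genes tested. The call was Ndrg2, a gene repressed by Myc that is also known as a marker of astrocytes, at 238 CPM in TUN, 218 in T8, 577 in T10 and 957 in T14 (adjusted p = 0.0317). Its high tumours, T14 and T10, were also those with the high sums of astrocyte markers. The part of these markers in the level of Ndrg2 was not tested. The call of the goodness of fit was lost without T14, T8 or TUN (smallest adjusted p over the 92 genes 0.25, 0.346 and 0.117) and without the filter on low counts (0.0744).

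Genes of the Mondo arm, Mga and the corepressors had no large common shift. Their median deviation from the 4-tumour mean ran from -0.08 to 0.15 log2 units, and 5 of 12 had T8 and TUN above T14 and T10, near the 32.5% of all genes tested. Single genes spanned more, with different high tumours: Pvt1 spanned 2.63-fold with its highest value in T8, and Txnip, a target of the Mondo proteins, 2.25-fold with its highest value in T10. Hdac2, a deacetylase of the Sin3 complex, stood at 223 CPM in TUN, 241 in T8, 164 in T10 and 155 in T14. Sin3b, a scaffold of that complex, stood at 125, 124, 94.4 and 105 CPM in the same order. Of the Mondo proteins, the glucose sensor MondoA (Mlxip) stood at 44.0 ± 6.05 CPM and ChREBP (Mlxipl), known from liver, at 1.23 ± 0.244 CPM (SD, n = 4), just above the limit of detection used here.

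Cofactors and regulators of Myc stability had a median deviation of 0.07 log2 units in TUN, 0.09 in T8, -0.05 in T10 and -0.13 in T14, and 10 of 22 had T8 and TUN above T14 and T10, against 32.5% of all genes tested. The highest per length were Bin1, which binds Myc and curbs it, at 67.1 ± 5.46 RPKM, and Trim32, a ubiquitin ligase that promotes Myc degradation in neural precursors of mice, at 54.0 ± 8.96 RPKM (SD, n = 4). Both were highest in T14 and lowest in TUN.

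Nucleolar genes known as Myc targets followed the order of Myc closely. Their median deviation was 0.16 log2 units in TUN, 0.37 in T8, -0.15 in T10 and -0.4 in T14, while the median of all genes tested stayed within 0.01 of 0. T8 was the highest tumour for 21 of 22 genes, and 16 of 22 had exactly the order of Myc, against 24.9% and 8.74% of all genes tested. Ncl, which encodes nucleolin, stood at 855 CPM in TUN, 1080 in T8, 933 in T10 and 646 in T14, and Npm1, which encodes nucleophosmin, at 241, 302, 146 and 142 CPM in the same order. The goodness of fit in edgeR called 0 of the 22, and none had an unadjusted p under 0.05. Npm1, like several metabolic genes below, is known for processed copies elsewhere in the genome, and reads split with them would make its level uncertain.

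Growth and metabolic targets showed the same pattern with larger differences. Their median deviation was 0.23 log2 units in TUN, 0.51 in T8, -0.25 in T10 and -0.43 in T14, T8 was highest for 20 of 26 genes (24.9% of all genes tested), and 14 had the order of Myc (8.74%). Slc7a5, the importer of large amino acids, stood at 760 CPM in TUN, 1205 in T8, 563 in T10 and 288 in T14, and did not pass the goodness of fit over all genes (unadjusted p = 0.0148, adjusted p = 0.238). Pkm, the pyruvate kinase gene and the most abundant of the list per length, stood at 678, 896, 779 and 801 CPM in the same order. Tfrc, the transferrin receptor gene, went against the list, with 58.8 CPM in TUN and 48.3 in T8, below 115 in T10 and 106 in T14.

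The pattern of these targets ran beside the precursor markers, of which 6 of 6 were highest in T8. Nucleolar targets summed to 257, 240, 268 and 239 CPM per 1000 CPM of precursor markers in TUN, T8, T10 and T14. This sum spanned 1.12-fold in place of 1.72-fold, and that of growth and metabolic targets 1.09-fold in place of 1.86-fold. Abundant genes such as Ncl (mean 879 CPM), Pkm (788) and Slc7a5 (704) weigh heavily in these sums. Single genes of the lists were not set on this scale. On the same scale Myc spanned 1.46-fold (8.59, 8.23, 6.72 and 5.88 in the same order), Mycn 1.25-fold and Mxd1 5.19-fold. Against dividing-cell markers Myc spanned 1.54-fold, nearly as little, with TUN lowest, while it was highest per precursor marker (33.2, 50.3, 51.2 and 41.4 CPM per 1000 in the same order). The part of precursor or dividing cells in the level of Myc and its targets was not tested.

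Genes known to be repressed by Myc had no shared direction: their median deviation was 0.13 log2 units in TUN, -0.12 in T8, -0.26 in T10 and 0.17 in T14. Of the 10, 1 was highest in T8, against 24.9% of all genes tested. The CDK inhibitor gene Cdkn1a stood at 164 CPM in TUN, 121 in T8, 54.4 in T10 and 87.1 in T14, so its high tumours were also those high in Myc.

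**Figure D4:**
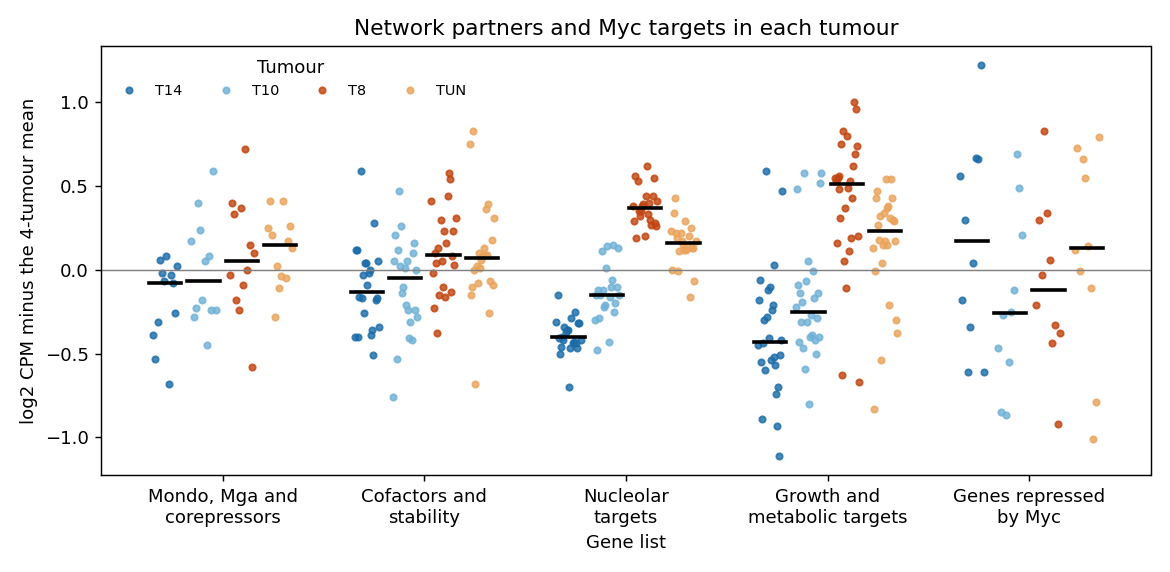
Log2 CPM minus the 4-tumour mean for each gene of 5 lists (points), by tumour, with the median (black bar). Nucleolar and metabolic targets of Myc lie lowest in T14 and highest in T8, and the other lists show smaller or mixed shifts.

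Promoters of the target lists held the E-box in 6 of 16 windows of nucleolar genes and 7 of 31 windows of growth and metabolic genes, against 7.15% of all windows. It was also found in 2 of 12 windows of repressed genes. The Mondo, Mga and corepressor list held it in 2 of 14 windows (14.3%), and cofactors and stability regulators in 4 of 26 (15.4%). Every list thus stood above the share of all windows for the E-box. E2F letters were found in 3 of 16 windows of nucleolar genes (18.8%) and 2 of 31 of growth and metabolic genes (6.45%). They were in 1 of 26 windows of cofactors and stability regulators (3.85%) and 0 of the other lists, against 1.84% of all windows. Windows matched 16 of 22 nucleolar genes and 22 of 27 growth and metabolic genes.

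Profiles most like those of the widest-ranging network genes were sought among 12015 genes at a mean CPM of 5 or more, by the largest difference in centred log2 CPM over the 4 tumours. Nearest to Mxd3 were Cd68, a macrophage gene, Aurka, a mitotic kinase that also protects Mycn protein, and Kpna2, an importin, each within 0.08 log2 units. Aurka stood at 56.6 CPM in TUN, 44.8 in T8, 19.8 in T10 and 25.5 in T14. Nearest to Mxd1 were Slc26a6, Plekha5 and Appl2, within 0.1 log2 units. Nearest to Myc were Vars, a valyl-tRNA synthetase gene (179, 222, 119 and 90.4 CPM in TUN, T8, T10 and T14), Gm26917 and the translation elongation factor gene Eef1b2, within 0.07. With 4 tumours such likeness is common: 305 genes lay within 0.25 log2 units of Myc, 82 of Mxd3 and 60 of Mxd1.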

How the data were processed

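PolyA RNA of 4 tumours was sequenced. The authors deposited whole-number read counts per gene, and the submitters' processing notes name STAR, featureCounts and the mm10 build. Genes follow GENCODE vM8, named with the table. Tool versions, the strand setting and the treatment of multi-mapping reads are not stated. The merged exon length, another column the authors deposited, was used for RPKM. Per the labels' protocols, libraries were made with a TruSeq RNA kit. No column name matches a single sample title, so each column stands for a tumour of 1 group without a number, and 0 columns of sample values were left aside. The labels call them tumours isolated from mice and say no more. The goodness of fit therefore measures only the spread between these samples, which may be technical in part. The sign-flip test asks whether a mean log2 ratio differs from 0 over the same samples.

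Of 46946 gene identifiers, 46451 were given a symbol from a reference table. Of identifiers with a common symbol, that with the higher total count was kept. Phb1 of the target lists matched no symbol. Counts were scaled with TMM (factors 0.971, 1.01, 0.988 and 1.03 for T14, T10, T8 and TUN) in edgeR 4.0.16 (R 4.3.3). The goodness of fit compared the residual deviance of an intercept-only model, at the trended dispersion and after the default filter on low counts, with a chi-square distribution of 3 degrees of freedom, with Benjamini-Hochberg adjustment over 14266 genes and a threshold of 0.05; it was tested on simulated data. Centred values are log2 CPM (prior count 2) minus the mean of the 4 tumours. Ratios are log2 of RPKM with 0.1 added, with two-sided exact sign-flip tests. Detection meant CPM of 1 or more in all 4 tumours, and a count of 0 allows up to 3 counts (0.122 to 0.134 CPM). Intervals and floors cover counting error only. Alternatives were DESeq2 1.42.0 size factors and dispersion outliers, library totals, no filter, a pseudocount of 1, CPM in place of RPKM, and leaving out each tumour. The named genes are all members, the 2 of highest mean RPKM in each list, all list genes past the goodness of fit, and the 3 nearest profiles of the 3 widest-ranging members. Bmyc, Mycs, Pvt1, Txnip, Mlxip, Mlxipl and Tfrc were named after their values were seen. Members, lists and tests were chosen with earlier results of these data known.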

Additional observations from a re-analysis of the deposited data

How the results depend on the processing

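The goodness of fit in edgeR called 619 of 14266 genes, and 78 were dispersion outliers in DESeq2. For the 10 network genes the count stayed at 0 with DESeq2 size factors, without the low-count filter, as dispersion outliers and without any 1 tumour, with a smallest adjusted p of 0.787 (without T8). Of the 92 list genes, 1 (Ndrg2) was called, 0 without the filter and 0 as dispersion outliers, and 0 to 1 when a tumour was left out. All 7 ratios kept their sign in the mean with pseudocount 1, in CPM and without any 1 tumour, and no p could pass the threshold. Their sizes depend on length: in CPM the means were -1.51 for activators to antagonists (RPKM -0.56), 3.12 for Mxd4 to Mxd3 (RPKM 1.09) and -1.43 for Mnt to Max (RPKM -2.62). Activators to antagonists ranged from -0.76 without T8 to -0.32 without T14. Other scalings changed any CPM by at most 3.37%. The number of nucleolar targets with T8 and TUN above T14 and T10 was 18 of 22 with TMM, 18 with DESeq2 size factors and 19 with library totals. With library totals in place of TMM it was 12 in place of 10 of 22 cofactors and stability regulators. It was 6 in place of 5 of 12 genes of the Mondo list, and stayed at 20 of 26 growth and metabolic targets and 4 of 10 repressed genes. Over all 14266 genes it was 4960 in place of 4640, and T8 was highest for 2938 in place of 3552. These checks were chosen after seeing the data, as were the scaling to precursor and dividing-cell markers and the share of Myc with Bmyc counted. No paired analysis was possible because there is 1 group and the columns carry no replicate numbers.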
